A study of Mus musculus with 4 samples.

Results

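The LIM-only factors and their LDB cofactors were followed as 6 genes, 4 LIM-only genes (Lmo1, Lmo2, Lmo3 and Lmo4) and 2 LIM-domain-binding genes (Ldb1 and Ldb2), out of 32531 gene rows. Members were taken by symbol, and all 6 were found and passed the filter on low counts. The list was drawn up with earlier accumbens and dorsal striatum results of these libraries known, so the members' differences between the regions are given as a description. RNA was sequenced from dissected nucleus accumbens and dorsal striatum of mice over 20 months old, with 2 libraries of each region and 8478403 to 11849134 counts assigned to genes per library. All animals carried the Drd1-TRAP CP73 transgene, in which the Drd1 promoter drives EGFP fused to the ribosomal protein Rpl10a. All 4 libraries were inputs by their labels, taken here as RNA of all cells in the dissected piece and not of the tagged cells alone. The labels do not tie the libraries of a region to separate animals. Errors and p-values therefore cover the spread of these libraries, and that spread may be technical.

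LIM-only proteins consist of little more than paired LIM zinc-finger domains and do not bind DNA themselves. They bridge DNA-binding factors to LDB proteins, which self-associate and also hold LIM-homeodomain factors, so that LIM-only and LIM-homeodomain proteins compete for the same LDB partner. In mice, Lmo3 and Lmo4 have been linked to behavioural responses to ethanol and to cocaine, which involve the accumbens.

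In these libraries Lmo4 had the largest difference among the 6 genes, at 2.65 times the dorsal striatum level in accumbens. The gap between its accumbens libraries was within counting error. Lmo3 was the most abundant member per length in both regions and differed by 1.22 times. Ldb1 and Ldb2 were 1.38 and 1.36 times as high in accumbens as in dorsal striatum. Lmo2 was the member with a lower level in accumbens, and Lmo1 was near the limit of detection.

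The promoters of the most abundant member and of the member with the largest difference are shown because they are unlike in base composition. Each line holds the 250 bases before a RefSeq transcript start, on GRCm38.p6 and on the minus strand, 5′ to 3′ with CG pairs in capitals. The Lmo3 window lies at chr6:138581969-138582218 and the Lmo4 window at chr3:144205256-144205505.
Lmo3: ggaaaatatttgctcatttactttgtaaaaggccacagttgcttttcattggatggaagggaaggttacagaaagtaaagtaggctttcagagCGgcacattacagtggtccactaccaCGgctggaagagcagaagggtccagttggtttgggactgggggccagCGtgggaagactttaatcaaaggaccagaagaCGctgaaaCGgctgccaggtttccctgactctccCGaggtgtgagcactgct
Lmo4: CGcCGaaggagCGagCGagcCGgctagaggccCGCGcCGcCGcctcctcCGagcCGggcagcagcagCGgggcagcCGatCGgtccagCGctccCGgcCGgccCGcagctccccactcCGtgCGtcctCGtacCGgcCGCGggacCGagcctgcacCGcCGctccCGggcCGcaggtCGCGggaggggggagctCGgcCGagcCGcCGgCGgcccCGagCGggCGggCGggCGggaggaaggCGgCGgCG
In the Lmo3 window there were 6 CG pairs, and 125 of its bases were G or C. In the Lmo4 window there were 44 CG pairs, and 206 of its bases were G or C. Over the 32536 distinct RefSeq windows of this length the median was 6 CG pairs and 131 G or C bases, 92.2% held at least 1 CG pair, and 0.544% held at least as many as Lmo4. The Lmo4 window shown belongs to the most upstream of 3 RefSeq starts, and the other windows held 25 and 29 CG pairs, numbers that 10.8% and 6.84% of all windows reached. Windows were found for 4 of the 6 members. These sequences were not measured here and are given as the genomic setting of the genes.

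Lmo4 (ENSMUSG00000028266.17, chromosome 3, 144188530 to 144205220 on GRCm38, minus strand) had 1000 and 984 counts in accumbens replicates 1 and 2, against 408 and 630 counts in dorsal striatum replicates 1 and 2. After scaling for library size with TMM factors to CPM (counts relative to the total count of a library), its level was 124 and 123 CPM in accumbens, against 42.9 and 50.2 CPM in dorsal striatum. Both accumbens libraries were far above both dorsal striatum libraries. The accumbens pair differed by less than 1 CPM, which is within counting error. The 95% exact Poisson intervals, which cover counting error only, were 116 to 132 CPM for accumbens replicate 1 and 115 to 131 CPM for accumbens replicate 2. The closeness of the pair, and its small SD, are therefore not read as precision. The accumbens mean was 123 ± 0.609 CPM and the dorsal striatum mean 46.5 ± 5.19 CPM (SD, n = 2 each), a log2 fold change of 1.41 (SE 0.16). The log2 fold change stayed between 1.28 and 1.52 when any 1 library was left out. Of all 14493 tested genes, 2.43% had a log2 fold change at least as large.

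Lmo3 (ENSMUSG00000030226.12, chromosome 6, 138362918 to 138581968, minus strand) encodes the LIM-only protein closest to Lmo1 in sequence and has been studied in neuroblastoma and in neurons. Its level was 314 and 267 CPM in accumbens, against 249 and 228 CPM in dorsal striatum. The groups did not overlap, but the gap between the nearest libraries was smaller than the gap between the accumbens replicates. The log2 fold change was 0.28 (SE 0.14), and 0.11 when counts were scaled by library size alone, where the regions overlapped.

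Lmo2 (ENSMUSG00000032698.15, chromosome 2, 103957986 to 103981878, plus strand) encodes the bridging subunit of a blood and endothelial transcription complex with Tal1, Gata factors and Ldb1. It had 41.9 and 32.6 CPM in accumbens, against 42.1 and 63.7 CPM in dorsal striatum. Accumbens replicate 1 and dorsal striatum replicate 1 were level, with 95% exact Poisson intervals, which cover counting error only, of 37.5 to 46.6 CPM in the accumbens library and 38.1 to 46.5 CPM in the dorsal striatum library. Dorsal striatum replicate 2 stood above the other libraries. The log2 fold change of −0.51 (SE 0.25) was −0.18 without dorsal striatum replicate 2 and −0.79 without dorsal striatum replicate 1.

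Lmo1 (ENSMUSG00000036111.8, chromosome 7, 109138572 to 109175207, minus strand), known from its rearrangement in T-cell leukaemia, had 15 and 9 counts in accumbens, against 3 and 22 counts in dorsal striatum. The highest and the lowest value both came from dorsal striatum, and the regions overlapped. The exact Poisson interval was 0.619 to 8.77 counts for dorsal striatum replicate 1 and 13.8 to 33.3 counts for replicate 2. The log2 fold change of 0.50 (SE 0.99) turned to −0.25 without dorsal striatum replicate 1 and was 2.19 without dorsal striatum replicate 2, so no direction can be given.

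**Figure D1:**
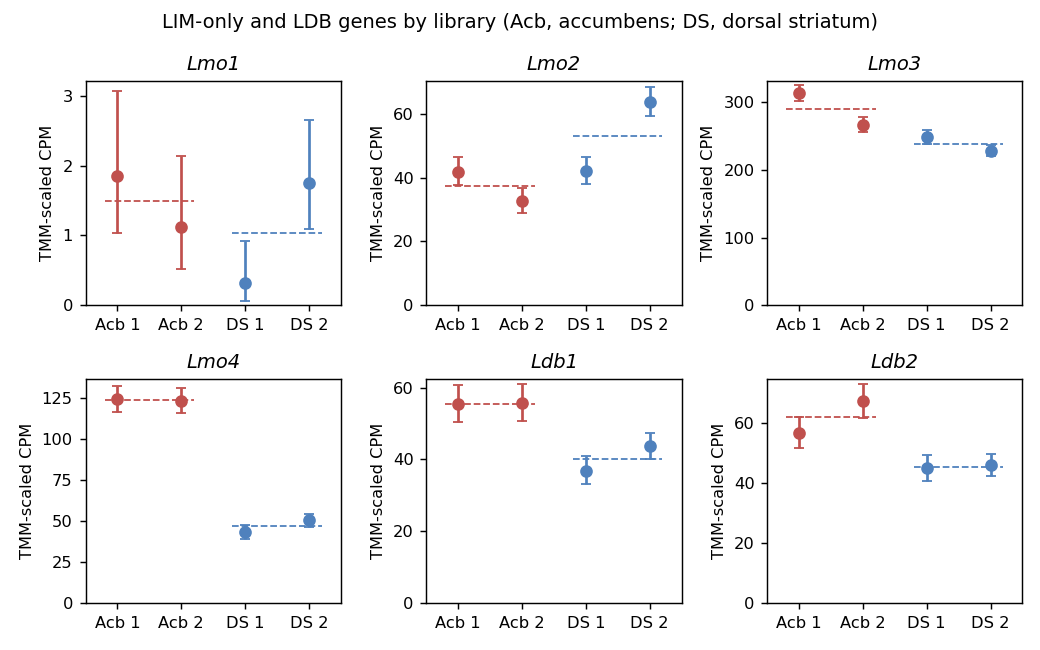
TMM-scaled CPM (vertical axes, each from 0) of the 6 genes in accumbens libraries 1 and 2 (Acb, red) and dorsal striatum libraries 1 and 2 (DS, blue). Bars are 95% exact Poisson intervals of the count and dashed lines are region means. Lmo4 stands at 124 and 123 CPM in accumbens, against 42.9 and 50.2 CPM in dorsal striatum, while dorsal striatum replicate 2 stands apart for Lmo2.

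The LDB cofactors both had higher means in accumbens, by a smaller factor. Neither passed an adjusted p of 0.05 in edgeR (0.223 for Ldb1 and 0.226 for Ldb2). Ldb1 (ENSMUSG00000025223.15, chromosome 19, 46031570 to 46045214, minus strand), the widely expressed cofactor, had 55.4 and 55.6 CPM in accumbens, against 36.8 and 43.6 CPM in dorsal striatum. Its log2 fold change was 0.46 (SE 0.18), and 0.33 and 0.59 without dorsal striatum replicates 1 and 2. Its exons share 177 bases with Pprc1 on the opposite strand. Whether reads of that stretch were counted for Ldb1 is not known, since the strand setting of the counting was not given. Ldb2 (ENSMUSG00000039706.11, chromosome 5, 44472132 to 44799680, minus strand), its paralog, had 56.6 and 67.1 CPM in accumbens, against 44.9 and 45.8 CPM in dorsal striatum. Its log2 fold change was 0.45 (SE 0.18), and 0.32 without accumbens replicate 2. For neither cofactor did the regions overlap, which held for 51.2% of all tested genes. The Ldb2 replicates in accumbens were 10.5 CPM apart, nearly as far as the nearest libraries of the 2 regions, at 10.8 CPM. For Ldb1 the larger gap between replicates was 6.82 CPM, in dorsal striatum, and the regions were 11.8 CPM apart at the nearest libraries. The exons of the other members share no base with another annotated gene, although genes on the opposite strand overlap Lmo1, Lmo2, Lmo3 and Ldb2 outside their exons.

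Of the 6 genes, 5 had a positive and 1 a negative log2 fold change, and the median was 0.46, against 0.02 for all tested genes. Lmo4 was the 1 member past an adjusted p of 0.05 in edgeR's quasi-likelihood test, where 1.28% of all tested genes passed (0.994% higher and 0.29% lower in accumbens). Accumbens lay wholly above dorsal striatum for 4 members and wholly below for 1, where 51.2% of all tested genes had groups that did not overlap, 25.6% above and 25.6% below. Because the members were listed with this contrast known, nothing is read from these counts. With scaling by library size alone, the median over all tested genes shifted to −0.15 in log2 fold change. Relative to that median Lmo4 stood at 1.39 under both scalings, and each other member also kept its distance from the median to within rounding. A change of scaling shifts all genes by nearly the same amount. These distances were therefore fixed in advance, and nothing about the members is read from them.

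**Figure D2:**
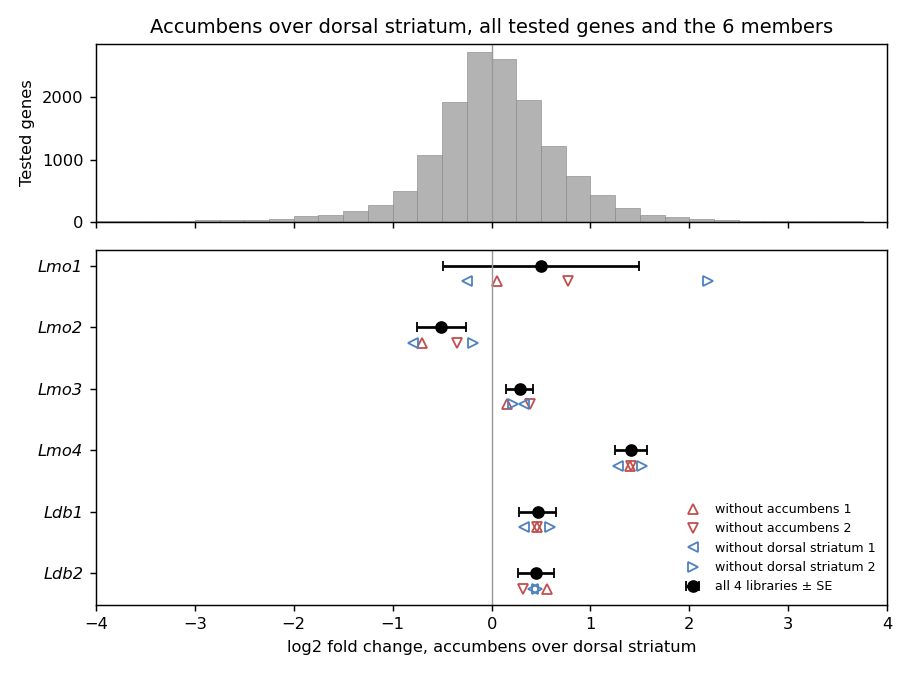
Top, number of tested genes per bin of log2 fold change, accumbens over dorsal striatum (the axis shows −4 to 4). Bottom, the 6 genes with all 4 libraries (black, ± SE) and with each library left out in turn (open triangles). Lmo4 keeps a log2 fold change of 1.28 to 1.52, while Lmo1 spans −0.25 to 2.19.

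Levels of different genes were compared per kilobase of annotated exon. In accumbens the order was Lmo3 (56.5 CPM per kb), Lmo4 (35.0), Ldb2 (18.5), Lmo2 (17.2), Ldb1 (12.05) and Lmo1 (0.961), all as mean CPM per kb. Ldb2 and Lmo2 are not separated in it, since their accumbens libraries overlapped. In dorsal striatum the order was Lmo3 (46.5), Lmo2 (24.4), Ldb2 (13.6), Lmo4 (13.2), Ldb1 (8.72) and Lmo1 (0.666), again as mean CPM per kb. There Lmo4, at 12.1 and 14.2 CPM per kb, was not separated from Ldb2, at 13.4 and 13.7 CPM per kb. Lmo4 therefore ranked above both LDB genes and Lmo2 in the accumbens libraries, and level with Ldb2 and below Lmo2 in the dorsal striatum libraries. Averaged over the regions, Lmo3 lay at the 96.5th percentile of tested genes in CPM per kb, Lmo4 at the 89.5th and Lmo1 at the 12.5th.

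Ratios of counts within a library do not depend on the scaling between libraries. Lmo4 had 2.96 and 3.77 counts per Lmo2 count in accumbens, against 1.02 and 0.788 in dorsal striatum. It had 2.24 and 2.21 counts per Ldb1 count in accumbens, against 1.17 and 1.15 in dorsal striatum, a ratio that agreed closely within each region. Lmo2 had 0.756 and 0.587 counts per Ldb1 count in accumbens, against 1.15 and 1.46 in dorsal striatum. Ldb2 to Ldb1 ratios were 1.02 and 1.21 in accumbens, against 1.22 and 1.05 in dorsal striatum, and overlapped.

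The make-up of the LIM-only pool, as each gene's share of the summed CPM per kb of the 4 genes, differed accordingly. Lmo4 made up 30.1% and 34.0% of the pool in accumbens, against 15.1% and 15.9% in dorsal striatum. Lmo2 made up 16.6% and 14.7% in accumbens, against 24.2% and 33.0% in dorsal striatum. Lmo3 held the largest share in each library, with 52.3% and 50.7% in accumbens and 60.4% and 49.8% in dorsal striatum. The summed LIM-only level was 117 and 103 CPM per kb in accumbens, against 80.3 and 89.2 CPM per kb in dorsal striatum. Set against the summed LDB level it was 4.03 and 3.19 times as high in accumbens and 3.74 and 3.85 times as high in dorsal striatum. This ratio of sums overlapped between the regions, as did the Lmo1 and Lmo3 shares, while the Lmo4 and Lmo2 shares did not. The shares and count ratios restate the levels of the same genes, so nothing further is read from that separation.

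**Figure D3:**
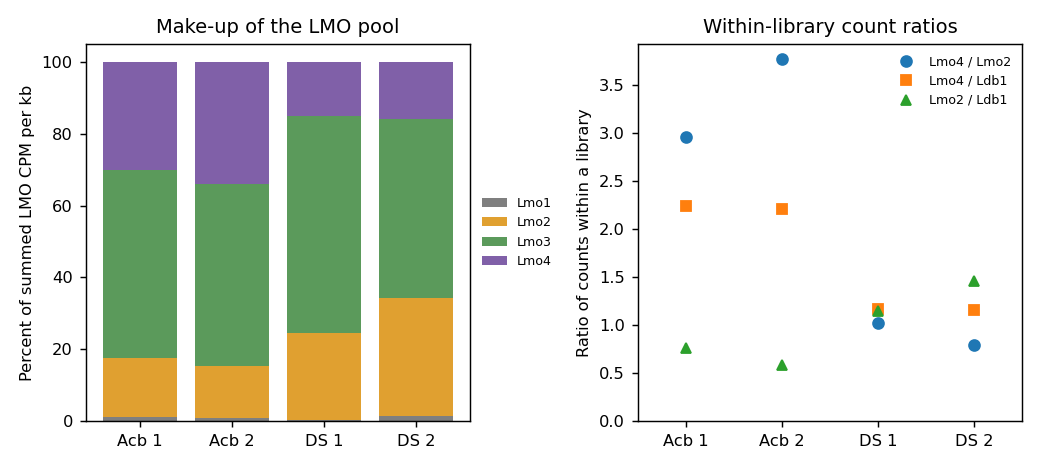
Left, share of each LIM-only gene in the summed CPM per kb of the 4 genes, in percent, per library (Acb, accumbens; DS, dorsal striatum). Right, ratios of counts within each library. The Lmo4 share is 30.1% and 34.0% in accumbens, against 15.1% and 15.9% in dorsal striatum, and the Lmo4 to Lmo2 ratio is 2.96 and 3.77, against 1.02 and 0.788.

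The partners and relatives of these factors were taken from 6 lists of 45 genes, of which 27 could be tested, and 1 of these passed the threshold in edgeR, where 1.28% of all tested genes did. For the list counts that follow, 19.2% of all tested genes had an unadjusted p under 0.05 in edgeR, 11.2% of the genes with an adjusted p were called in DESeq2 and 2.97% of tested genes in limma-voom. The partner gene past the threshold was Cbfa2t3, which encodes the corepressor ETO2 known from the Ldb1, Lmo2 and Tal1 complex of blood cells. It had 34.8 and 31.4 CPM in accumbens, against 11.8 and 13.1 CPM in dorsal striatum. The log2 fold change of 1.41 (SE 0.25, edgeR adjusted p = 0.0435) was nearly that of Lmo4. Cbfa2t3 missed the threshold without dorsal striatum replicate 1 or 2 (edgeR adjusted p = 0.316 and 0.175) and with library size alone (0.0519), and its adjusted p ran between 5.44e-05 and 0.316 over 12 alternatives.

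Among the 14 bHLH, GATA and ETO partners, 6 were tested, with 1 higher in accumbens, none lower and a median log2 fold change of 0.46. Chosen after their values were seen, the E-protein gene Tcf4 and the corepressor gene Runx1t1 had the next largest values. Tcf4 stood at 214 and 207 CPM in accumbens, against 143 and 116 CPM in dorsal striatum, with a log2 fold change of 0.70 (SE 0.15, edgeR adjusted p = 0.0658). Runx1t1 stood at 220 and 292 CPM in accumbens, against 166 and 181 CPM in dorsal striatum, and differed by 0.56 in log2 fold change (SE 0.16, edgeR adjusted p = 0.125). Tal1 and Lyl1, blood partners of Lmo2, had 0 counts in both accumbens libraries and at most 6 counts in a dorsal striatum library, and Gata3 had 0 counts in all libraries. Over all gene rows, 16915 and 17417 had a count above 0 in accumbens, against 19519 and 19532 in dorsal striatum. Counts of 0 were thus more common in accumbens in general, and those of Tal1 and Lyl1 are not read as regional absence.

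LIM-homeodomain genes, whose products compete with LIM-only proteins for LDB, had 4 tested members among 12. With all 4 libraries the log2 fold changes of these tested genes were near 0. Over 12 alternatives they ran from −0.31 to 0.58 for Lhx6 and from −0.51 to 0.43 for Lhx8. None passed in edgeR (0 also at an unadjusted p under 0.05, in DESeq2 and in limma-voom), and their median was 0.09. Lhx6, a factor of interneurons from the medial ganglionic eminence, stood at 46.2 and 85.5 CPM in accumbens, against 48.9 and 65.3 CPM in dorsal striatum. Isl1, found in cholinergic interneurons and in developing direct pathway neurons, stood at 15.2 and 22.0 CPM in accumbens, against 15.7 and 19.1 CPM in dorsal striatum. Lhx3, Lhx4, Isl2 and Lmx1a had 0 counts in all 4 libraries. Lhx5 and Lhx9 fell under the filter on low counts. Lhx5 had 0 counts in both accumbens libraries, against 7 and 19 counts in dorsal striatum. Lhx9 had 1 and 0 counts in accumbens, against 3 and 8 counts in dorsal striatum. Since fewer gene rows were detected in the accumbens libraries in general, these low counts are not read as regional absence.

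The genes that set LDB protein stability also gave no call among 4 in edgeR (1 at an unadjusted p under 0.05, and 0 in DESeq2 and limma-voom), with a median of 0.16. Rlim, the ubiquitin ligase that targets LDB proteins, had 161 and 180 CPM in accumbens, against 172 and 201 CPM in dorsal striatum. Ssbp2, whose product shields LDB from degradation, had 71.8 and 92.9 CPM in accumbens, against 82.9 and 81.4 CPM in dorsal striatum. The regions overlapped for both genes. The other 2 members, Ssbp3 and Ssbp4, also LDB-stabilising and named after their values were seen, lay wholly above in accumbens. So did 25.6% of all tested genes. The log2 fold change was 0.32 for Ssbp3 (SE 0.18, edgeR adjusted p = 0.384) and 0.88 for Ssbp4 (SE 0.28, edgeR adjusted p = 0.144). Ssbp3 had 65.3 and 64.6 CPM in accumbens, against 45.6 and 58.0 CPM in dorsal striatum, and Ssbp4 had 36.3 and 24.0 CPM in accumbens, against 16.5 and 16.3 CPM in dorsal striatum.

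Known Lmo4 binding partners had none of 5 past the threshold (0 at an unadjusted p under 0.05, in DESeq2 and in limma-voom), with a median of −0.05. The cytokine co-receptor gene Il6st stood at 113 and 103 CPM in accumbens, against 101 and 86.5 CPM in dorsal striatum, and the phosphatase gene Ptpn1 at 31.0 and 32.5 CPM in accumbens, against 30.7 and 34.8 CPM in dorsal striatum. Alk, a receptor tyrosine kinase gene reported as an Lmo4 target in mice, stood at 6.19 and 5.13 CPM in accumbens, against 7.46 and 7.01 CPM in dorsal striatum. Its log2 fold change of −0.35 (SE 0.42, edgeR adjusted p = 0.712) was smaller in size than its SE, so no direction is read from it.

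Other small LIM proteins had 7 tested genes among 9, none past the threshold in edgeR (1 at an unadjusted p under 0.05, 1 in DESeq2 and 0 in limma-voom), with a median of 0.25. Csrp1, a cytoskeletal LIM protein gene, had 118 and 191 CPM in accumbens, against 153 and 124 CPM in dorsal striatum, and Fhl1 had 76.1 and 85.4 CPM in accumbens, against 66.1 and 70.0 CPM in dorsal striatum. The gene that DESeq2 called was Crip2, seen after the fact, at 58.5 and 47.1 CPM in accumbens, against 22.9 and 35.0 CPM in dorsal striatum.

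**Figure D4:**
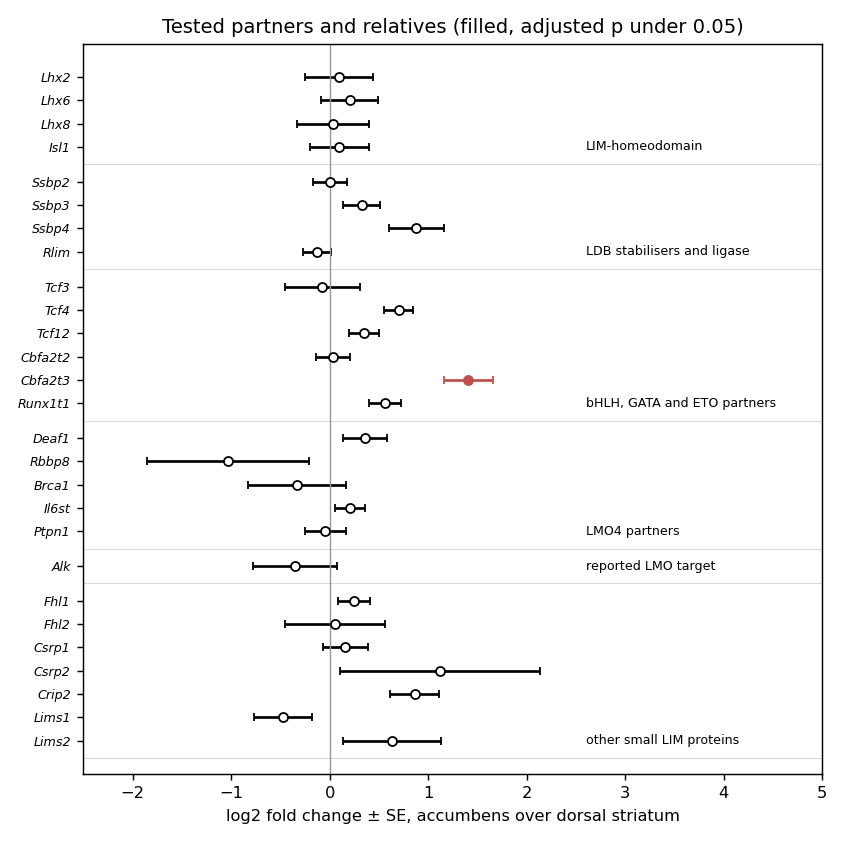
Plotted is the log2 fold change (horizontal axis, accumbens over dorsal striatum, ± SE) of the 27 tested partners and relatives, grouped by list. The filled point is Cbfa2t3 at 1.41, the 1 gene with an edgeR adjusted p under 0.05, and the LIM-homeodomain genes sit near 0.

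The genes most like each member over the 4 libraries were found by the Euclidean distance between centred log2 CPM profiles, among genes of similar level. For Lmo4 these were Pdyn, the prodynorphin gene, at a distance of 0.18, and Oprk1, the kappa opioid receptor gene, at 0.19, out of 3217 candidates. Pdyn had 188 and 162 CPM in accumbens, against 65.0 and 77.7 CPM in dorsal striatum. Oprk1 had 69.0 and 59.8 CPM in accumbens, against 23.4 and 29.2 CPM in dorsal striatum. For Lmo3 the nearest were Elmod1, which encodes a GTPase-activating protein (0.05), and Synpo, the synaptopodin gene (0.05). Ldb1 lay nearest to Gigyf1 (0.01) and the cytokine receptor gene Cntfr (0.04), and Ldb2 to Eny2 (0.03) and the importin gene Ipo13 (0.06). For Lmo2 they were the mitochondrial import gene Timm44 (0.18) and the inositol synthase gene Isyna1 (0.19), and for Lmo1 Nek8 (0.23) and Riiad1 (0.49). With 4 libraries many genes share such a profile, and the distances describe these libraries alone.

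Lmo4 and Lmo3 are also expressed in cerebral cortex and Lmo2 in endothelium, so markers of those cells were measured beside them. In bulk tissue, fewer cells of a type and less RNA per cell cannot be told apart. Of 9 cortical glutamatergic markers 8 were tested and none passed in edgeR (4 at an unadjusted p under 0.05, 1 in DESeq2 and 2 in limma-voom), and their summed level was 382 and 220 CPM in accumbens, against 158 and 69.1 CPM in dorsal striatum. Slc17a7, the cortical vesicular glutamate transporter gene, stood at 198 and 79.4 CPM in accumbens, against 32.3 and 0.717 CPM in dorsal striatum. The tested cortical markers had a median log2 fold change of 1.37 (6 positive, 2 negative), beside 1.41 for Lmo4. Between the accumbens libraries Slc17a7 differed by 2.49 times, and Lmo4 by less than 1 CPM, which is within counting error. In dorsal striatum Lmo4 was higher in replicate 2, where Slc17a7 was lowest, than in replicate 1. The part of cortical tissue in the Lmo4 difference was not tested. The Lmo3 level was higher in accumbens replicate 1 and dorsal striatum replicate 1, as was the cortical sum within each region, and its part in the Lmo3 difference was not tested either.

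Of 6 endothelial markers 5 were tested and none passed in edgeR (1 at an unadjusted p under 0.05, and 0 in DESeq2 and limma-voom). Their summed level was 47.7 and 15.0 CPM in accumbens, against 18.6 and 8.53 CPM in dorsal striatum, and Cldn5 had 0 counts in accumbens replicate 2 and dorsal striatum replicate 2. Lmo2 was highest in dorsal striatum replicate 2, where the endothelial sum was lowest, and the part of endothelial cells in the Lmo2 difference was not tested. The 11 markers of spiny projection neurons, the main striatal cell class, were all detected. Their sums were 6313 and 5225 CPM in accumbens, against 7130 and 7247 CPM in dorsal striatum. Of these markers 4 had a positive and 7 a negative log2 fold change. In edgeR 1 passed (5 at an unadjusted p under 0.05, 3 in DESeq2 and 2 in limma-voom). The abundant genes weigh most in the sum and did not go 1 way. Rgs9 had 659 and 663 CPM in accumbens, against 1590 and 1314 CPM in dorsal striatum. Penk had 1085 and 770 CPM in accumbens, against 585 and 744 CPM in dorsal striatum. Markers of GABA interneurons summed to 294 and 305 CPM in accumbens, against 159 and 188 CPM in dorsal striatum, with Sst as the 1 of 5 tested genes past the threshold. Sst alone had 193 and 143 CPM in accumbens, against 53.5 and 58.4 CPM in dorsal striatum. Of the 5, 3 had a positive and 2, Nos1 and Pvalb, a negative log2 fold change. The part of GABA interneurons in the Lmo4 difference was not tested. Over all 13 marker lists, 65 genes were tested, of which Sst, Ndst4 and Gja1 passed as higher and Rgs9 as lower in accumbens.

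**Figure D5:**
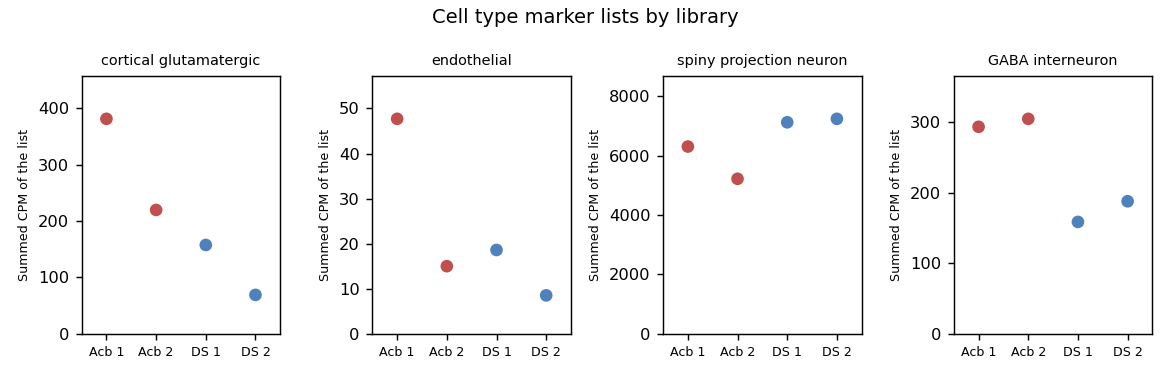
Summed TMM-scaled CPM (vertical axes, each from 0) of 4 marker lists in accumbens (Acb, red) and dorsal striatum (DS, blue) libraries. The cortical sum is 382 and 220 CPM in accumbens, against 158 and 69.1 CPM in dorsal striatum, and the endothelial sum is lowest in dorsal striatum replicate 2.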

How the data were processed

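Each library had 1 table of raw counts by gene symbol, deposited by the authors without normalization. Alignment used STAR 2.0.0e and counting used HTSeq, on the mm10 build, per the submitters' processing notes. The annotation and strand setting of the counting were not given in the sources used here. Summary rows that name no gene stayed out of library sizes and tests, and reads in no feature made up 27.5% to 35.4% of all rows' counts.

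Counts were scaled with TMM and tested with edgeR 4.0.16 (estimateDisp, glmQLFit, glmQLFTest) in R 4.3.3, region as the only term, after filterByExpr, with Benjamini-Hochberg adjustment over 14493 genes and a threshold of 0.05. The SE was derived from the log2 fold change and its F statistic. Exon lengths (union of exons) and gene coordinates came from GENCODE M21 on GRCm38, the assembly of mm10, and promoters from RefSeq on GRCm38.p6. A gene at 0 counts is below 3 counts per library, or 0.253 to 0.354 CPM of gene counts.

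The members and lists were chosen with earlier results of these data known. Named genes are the members, list genes past the threshold (else the 2 most abundant) and the 2 nearest profiles per member (prior count 2, mean log2 CPM within 1 of the member, unnamed transcripts passed over). Tcf4, Runx1t1, Crip2, Ssbp3, Ssbp4, markers and list genes given for counts of 0 or a few were named after their values were seen. The same holds for Lhx5, Lhx8 and Lhx9. Alternatives were other scalings, no filter, DESeq2 1.42.0, limma-voom 3.58.1, a replicate block, each library left out and the 50 most abundant rows left out. The procedure was tested on simulated data.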

Additional observations from a re-analysis of the deposited data

How the results depend on the processing

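Of 72 recomputed member fold changes, 62 moved by less than the SD between replicates and the called member, Lmo4, kept its sign in each, while Lmo1, not called in any, turned to −0.25 without dorsal striatum replicate 1. Library size alone lowered each member. Lmo3, Lmo4, Ldb1 and Ldb2 (to 0.11, 1.23, 0.29 and 0.28) moved by more than the SD between replicates, and Lmo1 and Lmo2 (to 0.33 and −0.68) by less. All genes called with library size alone numbered 72 higher and 172 lower, against 144 and 42 with TMM. Among these, 0 bHLH, GATA and ETO partners were higher with library size alone. Lmo4 passed in each of the 12 alternatives, and no other member passed outside the leave-outs. Genes past the threshold numbered 186, against 1203 (768 higher, 435 lower) with no low-count filter, 933 (601 and 332) in DESeq2, 431 (310 and 121) in limma-voom and 843 (551 and 292) with the replicate block. Among bHLH, GATA and ETO partners 3 were higher with no filter, in DESeq2 and with the block, and 2 in limma-voom. Among other small LIM proteins 1 was higher with no filter, in DESeq2 and with the block. The replicate numbers did not pair the libraries in the labels, and deviations of same-numbered libraries correlated at 0.03 (2 pairs).

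With each library left out in turn, calls ranged from 109 to 4464 (81 to 2386 higher, 28 to 2078 lower). Members past the threshold ranged from 1 to 3 (1 to 2 higher, 0 to 1 lower), with Ldb2 and Lmo2 added without accumbens replicate 1 and Lmo3 without accumbens replicate 2, fits in which the single accumbens library is assumed to have the spread of the dorsal striatum libraries. Ranges were 0 to 1 higher and 0 to 1 lower for LIM-homeodomain genes, 0 to 1 higher for LDB stabilisers and ligase, 0 to 3 higher for bHLH, GATA and ETO partners, and 0 to 2 higher and 0 to 1 lower for other small LIM proteins. The cause of these shifts was not tested. At 3 to 22 counts, depth limits what can be said of Lmo1.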
